A study of Mus musculus with 6 samples.

Results

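The genes described here mark the inner lining of blood vessels, and their transcripts were measured in whole lungs of mice. They are 42 genes chosen by name: markers of endothelium in general, of capillaries, arteries and veins, and the angiopoietin, Notch and BMP (bone morphogenetic protein) signals that endothelium uses. All 42 were present among the 24054 gene rows of the deposited table, and all 42 passed the filter on low values that left 14159 genes to test. The lungs came from 6 female SCID mice, a strain without working B and T cells, 3 in each group. All mice received extracellular vesicles (EVs) carrying CD9, CD63 and CD81 by tail vein, fluorescently labelled and released by neural progenitors taken at E15.5. In the Tsc1-null EV group the progenitors lacked Tsc1, a tumour suppressor gene whose product inhibits mTORC1, and in the WT EV group they were wild type. After 48 h both groups received rat ELT3 cells, a line that models lymphangioleiomyomatosis, into a vein, and lungs were collected 72 h later. No lung without EVs or without ELT3 cells was analysed here, and any reads from the rat cells are not separated from mouse reads here.

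Endothelial cells of the lung share a core set of transcription factors, among them ERG, FLI1 and the SOXF group, and differ by vessel type. The alveolar wall holds aerocytes, wide thin capillary cells for gas exchange marked by Car4, Ednrb and Apln, and general capillary cells marked by Gpihbp1, Plvap and Aplnr. Arterial cells rely on Notch signalling and on connexins, which couple neighbouring cells, whereas venous cells depend on the nuclear receptor NR2F2. Angiopoietins bind the receptor TEK to keep vessels quiet or unstable, and BMP9 and BMP10 act on endothelium through ACVRL1, BMPR2 and the co-receptor endoglin.

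The start regions of 3 members are shown: Egfl7 had the smallest unadjusted p among the members, Notch4 had the most matches to the motif described here, and Gja5 was the only member higher in every Tsc1-null EV lung. Each runs 5′ to 3′ on the strand of the gene from 250 bases before to 50 after a start site (RefSeq, GRCm38.p6), and capitals mark AGGAAG, a core bound by ETS factors such as ERG and FLI1, on either strand (CTTCCT where it lies on the other).
Egfl7: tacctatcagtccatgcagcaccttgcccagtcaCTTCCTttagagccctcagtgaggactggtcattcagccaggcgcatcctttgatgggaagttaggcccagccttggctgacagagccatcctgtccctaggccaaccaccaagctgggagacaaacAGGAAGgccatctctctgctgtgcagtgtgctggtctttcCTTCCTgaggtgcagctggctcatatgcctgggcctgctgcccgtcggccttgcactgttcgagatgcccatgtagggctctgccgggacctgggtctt
Notch4: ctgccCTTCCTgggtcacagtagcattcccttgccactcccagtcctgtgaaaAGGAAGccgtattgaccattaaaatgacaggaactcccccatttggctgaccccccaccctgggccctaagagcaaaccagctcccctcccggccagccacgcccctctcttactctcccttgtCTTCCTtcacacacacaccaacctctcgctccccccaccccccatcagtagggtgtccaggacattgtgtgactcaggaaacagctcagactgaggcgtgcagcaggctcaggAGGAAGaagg
Gja5: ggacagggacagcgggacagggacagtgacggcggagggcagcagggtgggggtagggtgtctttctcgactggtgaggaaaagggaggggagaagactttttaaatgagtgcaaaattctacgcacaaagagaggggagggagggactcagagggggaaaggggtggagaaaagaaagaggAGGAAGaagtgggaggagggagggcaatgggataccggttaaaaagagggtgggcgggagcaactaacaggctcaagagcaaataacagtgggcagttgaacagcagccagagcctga
RefSeq gives 3 start regions for Egfl7, and the one with the most matches is shown. It lies at chr2:26580833-26581132, the Notch4 region at chr17:34564045-34564344 and the Gja5 region at chr3:97032152-97032451, all on the plus strand. RefSeq start regions were at hand for 25 of the members (30 regions), and 13 of the 30 (43.3%) held the letters, against 35.4% of all 32851 such regions. A match of 6 letters is a description and does not show binding.

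Recovered gene reads numbered 5101413, 9358820 and 9092830 in Tsc1-null EV lungs, against 8222269, 6565182 and 8079325 in WT EV lungs. Each member was covered by 40 to 10221 reads in each library. Values below are reads after TMM normalization, scaled per library (RPM; totals 964931 to 1022663), and p-values measure the spread between mice. Tsc1-null EV replicate 1 and WT EV replicate 2 differed most from the remaining libraries and are called the libraries that stood apart. They had the most of the nuclear RNA Malat1 (30060 and 15673, the rest 1609 to 2819) and of Rn45s, a precursor of ribosomal RNA (13776 and 10881, the rest 3293 to 6120). Markers of lung endothelium were present in every library, and the lymphatic factor Prox1 lay at 0.122 to 1.22.

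Most endothelial genes lay lower in lungs that had received Tsc1-null EVs, but no single one passed the test. Of the 42 members 35 had a log2 ratio below 0 (mean log2(value + 1) of Tsc1-null EV lungs minus that of WT EV lungs, called the log2 fold), where 52.7% of all tested genes did, and the median was -0.36, against -0.02 over all tested genes. Limma called 0 of 14159 genes and 0 of the 42 members at an adjusted p under 0.05 (0% called), with members between 0.721 and 0.986. At an unadjusted p under 0.05 limma had 7 members (6.57% of all tested genes), of which 6 were lower (2.97% of all) and 1 higher (3.6% of all). edgeR and DESeq2 on the recovered reads called 0 members as well (0% and 0.0989% of all genes called), with 8 and 9 members at an unadjusted p under 0.05 (6.91% and 6.7% of all genes). With libraries weighted by how closely each followed its group, limma called 9 members lower and 1 higher, where it called 3.3% and 4.12% of all tested genes. In each group most of that weight lay on 1 lung. Tsc1-null EV replicate 2 had 3.95 and WT EV replicate 3 had 4.19, and the rest had 0.213 to 0.933. In 5 members (Egfl7, Ramp2, Sox17, Dll4 and Hey1) every Tsc1-null EV lung lay below every WT EV lung, where 6.22% of all tested genes did. In 1 member, Gja5, every Tsc1-null EV lung lay above, where 6.86% of all tested genes did. In whole tissue, fewer endothelial cells and less RNA per cell cannot be told apart.

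**Figure D1:**
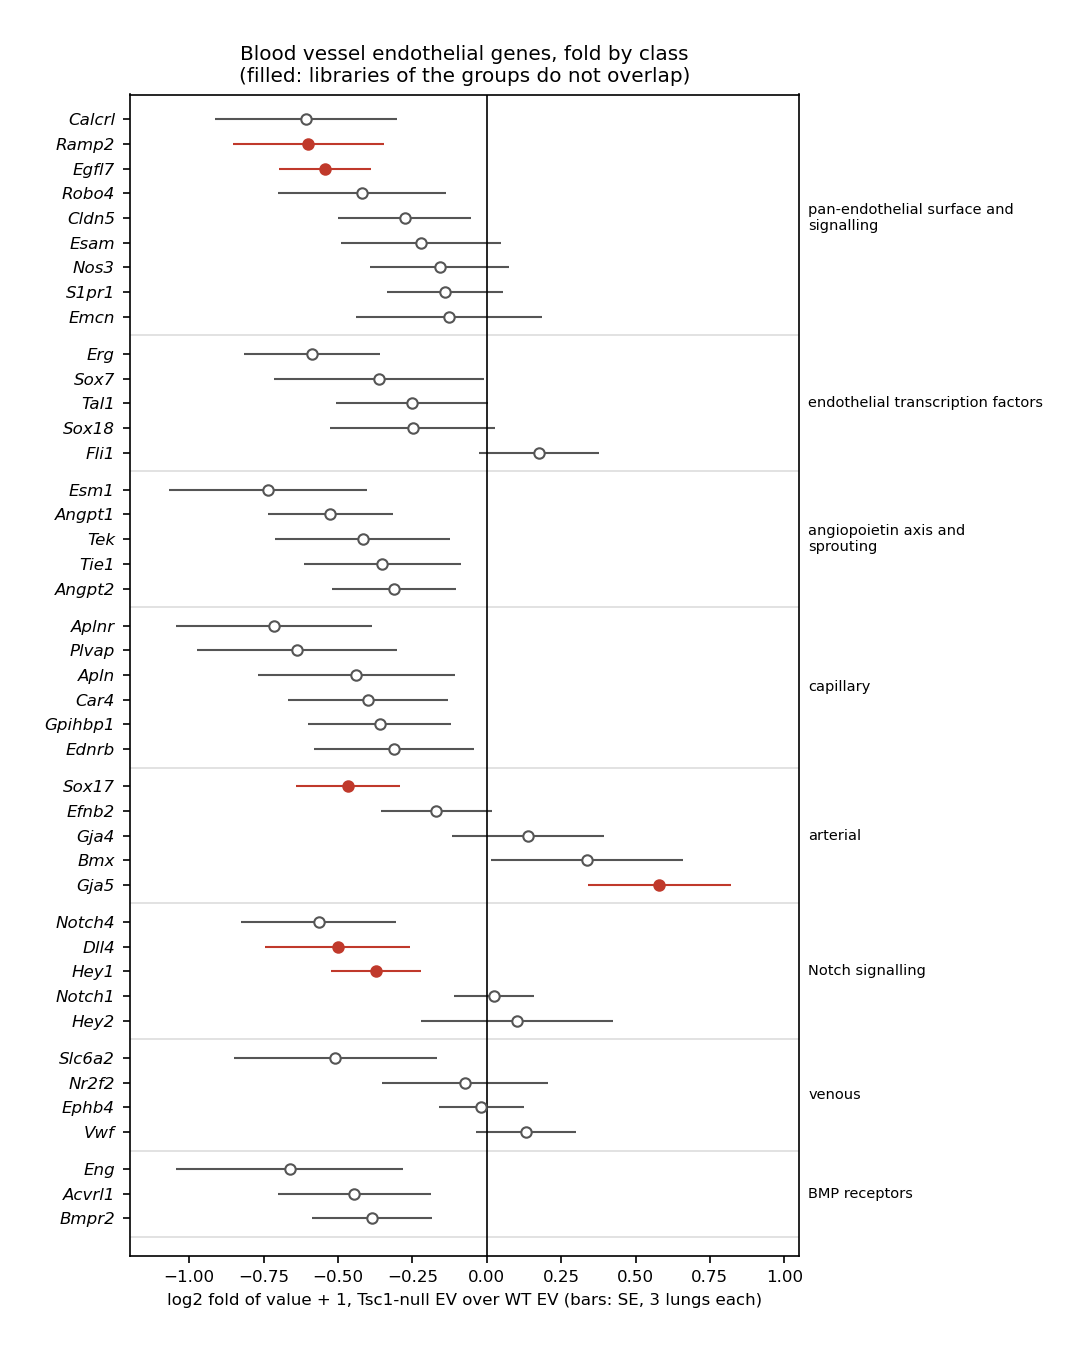
Mean log2(value + 1) of 3 Tsc1-null EV lungs minus that of 3 WT EV lungs for the 42 members by class, with bars for the SE and filled points where the libraries of the groups do not overlap. Capillary, angiopoietin and BMP receptor genes all lie left of 0, and Gja5, Bmx, Gja4, Fli1, Vwf, Hey2 and Notch1 lie right of it.

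The size of the shift rested in large part on 1 lung. Tsc1-null EV replicate 1 was the lowest of all 6 libraries for 31 of the 42 members, where it was the lowest for 30.4% of all tested genes. Without it the median of the members was -0.10 and 31 were below 0, and without both libraries that stood apart the median was -0.22 and 34 were below 0. The number of members lying wholly lower was 5 with all lungs. With Tsc1-null EV replicate 1 left out it was 6, or 14.3% of the members and 14.3% of all tested genes. It was 8 with Tsc1-null EV replicate 2 left out (9.69% of all tested genes), 17 with Tsc1-null EV replicate 3 left out (14% of all) and 14 with WT EV replicate 2 left out (11.4% of all). It was 7 and 5 with WT EV replicate 1 or 3 left out (11.7% and 9.03% of all). The number lying wholly higher was 2 with Tsc1-null EV replicate 1 left out (14.9% of all) and 3 when Tsc1-null EV replicate 3 was (13.2% of all). Without both libraries that stood apart, 15 members lay wholly lower and 2 wholly higher, where 21.5% and 20.8% of all tested genes did.

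The general endothelial surface and signalling genes all had a log2 fold below 0 (9 of 9, median -0.28). Egfl7 encodes a protein that endothelial cells secrete into their matrix and hosts miR-126 in an intron. It stood at 214, 256 and 245 in Tsc1-null EV lungs, against 309, 384 and 353 in WT EV lungs. The groups did not overlap, with the nearest lungs at 256 and 309. The means were 238.5 ± 21.7 and 348.6 ± 37.3 in the same order (SD, n = 3 each). The log2 fold was -0.54 ± 0.16 (SE, limma adjusted p = 0.721). Calcrl and Ramp2 together form the adrenomedullin receptor, which maintains the vessel barrier. Ramp2 stood at 333, 569 and 602 in Tsc1-null EV lungs, against 807.5, 610 and 806 in WT EV lungs (log2 fold -0.60 ± 0.25, limma adjusted p = 0.721). Its highest Tsc1-null EV lung and its lowest WT EV lung were separated by only a small gap. Calcrl, the member with the highest value of this class, stood at 559, 460 and 624 in Tsc1-null EV lungs, against 1247, 516 and 882 in WT EV lungs, so the groups overlapped through WT EV replicate 2. Robo4, a receptor that steadies endothelial junctions, stood at 37.9, 66.3 and 91.9 in Tsc1-null EV lungs, against 79.5, 82.9 and 85.1 in WT EV lungs. The tight junction gene Cldn5, the adhesion gene Esam, the sialomucin Emcn, the sphingosine 1-phosphate receptor S1pr1 and the nitric oxide synthase Nos3 overlapped between the groups, with log2 folds from -0.28 (Cldn5) to -0.13 (Emcn). Without Tsc1-null EV replicate 1 the median of the class was -0.06 and 6 of 9 stayed below 0.

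**Figure D2:**
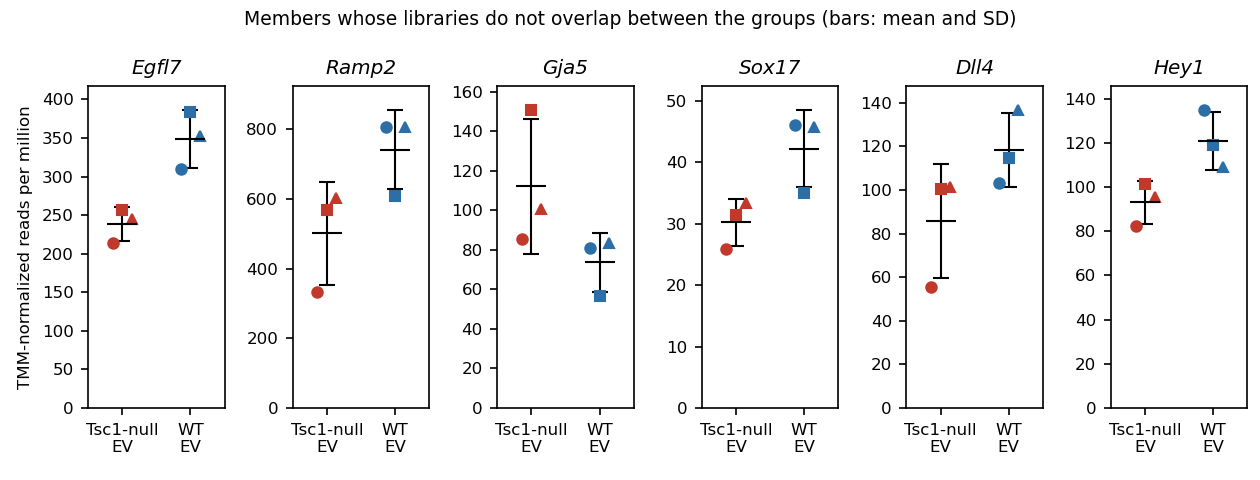
RPM (TMM-normalized) per lung (symbols), with mean and SD, for the members whose libraries do not overlap between the groups, Tsc1-null EV on the left of each panel and WT EV on the right. Egfl7, Ramp2, Sox17, Dll4 and Hey1 are lower and Gja5 is higher in every Tsc1-null EV lung. The gap between the nearest lungs, Tsc1-null EV first, is narrow for Ramp2 (602 and 610) and Dll4 (101 and 103). It is narrow as well for Sox17 (33.4 and 35.0) and Gja5 (85.4 and 83.4).

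The transcription factors that set endothelial identity were mixed (4 of 5 below 0, median -0.25). Erg, an ETS factor needed for vessel integrity, stood at 40.5, 42.4 and 70.3 in Tsc1-null EV lungs, against 69.0, 89.1 and 67.9 in WT EV lungs (log2 fold -0.59 ± 0.23, limma adjusted p = 0.721). Only Tsc1-null EV replicate 3 reached the WT EV range. Its relative Fli1, which blood cells also use, was at 40.1, 40.9 and 45.1 in Tsc1-null EV lungs, against 46.1, 27.3 and 40.2 in WT EV lungs, so the groups overlapped, and its log2 fold was 0.18, or -0.04 without WT EV replicate 2. Sox18, of the SOXF group, stood at 138, 232 and 240 in Tsc1-null EV lungs, against 264, 167 and 294 in WT EV lungs, and its log2 fold was -0.25, or 0.01 without Tsc1-null EV replicate 1. Sox7, of the same group, and Tal1, which acts in both blood and vessel lineages, had log2 folds of -0.36 and -0.25 with overlapping groups. The median of the class was 0.01 without Tsc1-null EV replicate 1.

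All 5 genes of the angiopoietin axis and of sprouting lay below 0 (median -0.42). Tek, the angiopoietin receptor, stood at 157, 268 and 356 in Tsc1-null EV lungs, against 329, 271 and 401 in WT EV lungs. The groups overlapped, with Tsc1-null EV replicate 1 far below the rest. Angpt1, the stabilizing ligand, made largely by cells around the vessel, stood at 61.7, 82.5 and 66.7 in Tsc1-null EV lungs, against 131, 78.3 and 99.9 in WT EV lungs (log2 fold -0.53 ± 0.21, limma adjusted p = 0.721). Here Tsc1-null EV replicate 2 lay above WT EV replicate 2 and the other lungs did not cross. Angpt2, the ligand of unstable vessels, had a log2 fold of -0.31, the related receptor Tie1 -0.35, and Esm1, a secreted product of sprouting tip cells, -0.74, or -0.40 without Tsc1-null EV replicate 1. Esm1 was at 10.2, 30.2 and 15.5 in Tsc1-null EV lungs, against 29.0, 25.7 and 32.2 in WT EV lungs, and Tsc1-null EV replicate 2 lay within the WT EV range. All 5 stayed below 0 without Tsc1-null EV replicate 1 (median -0.18) and without both libraries that stood apart (median -0.27).

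All 6 capillary genes lay below 0 (median -0.42), and none passed or separated the groups fully. Plvap, which builds the diaphragms of endothelial pores, stood at 203, 394 and 560 in Tsc1-null EV lungs, against 540, 482 and 649 in WT EV lungs. Aplnr, the apelin receptor of general capillary cells, stood at 30.5, 58.3 and 81.8 in Tsc1-null EV lungs, against 85.5, 71.3 and 108 in WT EV lungs (log2 fold -0.72 ± 0.33, limma adjusted p = 0.721). For both, Tsc1-null EV replicate 3 lay among the WT EV lungs and the other Tsc1-null EV lungs lay below them. Gpihbp1, which carries lipoprotein lipase to the capillary surface, had a log2 fold of -0.36. Of the aerocyte genes, the carbonic anhydrase Car4 was at -0.40, the endothelin receptor Ednrb at -0.31 and the ligand Apln at -0.44, so both capillary types lay on the same side. All 6 also stayed below 0 without Tsc1-null EV replicate 1 (median -0.18) and without both libraries that stood apart (median -0.35). Longer marker lists, which share some members, had 10 of 10 aerocyte genes below 0 (median -0.35) and 10 of 10 general capillary genes below 0 (median -0.38). In the aerocyte list the transcription factor Tbx2 was at 116, 199 and 228 in Tsc1-null EV lungs, against 275, 296.5 and 329 in WT EV lungs, and Fibin at 29.7, 49.1 and 52.4 in Tsc1-null EV lungs, against 83.6, 73.9 and 69.5 in WT EV lungs. Neither overlapped between the groups, and neither passed. In all, 2 of 10 aerocyte and 3 of 10 general capillary genes lay wholly lower, where 6.22% of all tested genes did.

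The arterial genes split (2 of 5 below 0, median 0.14). Gja5, which encodes connexin 40 of arterial endothelium and of the heart's atria, stood at 85.4, 151 and 100.4 in Tsc1-null EV lungs, against 81.1, 56.4 and 83.4 in WT EV lungs (log2 fold 0.58 ± 0.24, limma adjusted p = 0.721). All Tsc1-null EV lungs were higher, replicate 1 by a narrow margin, and the log2 fold ran from 0.35 without Tsc1-null EV replicate 2 to 0.75 without replicate 1 of that group. Heart muscle, another source of connexin 40, had 6 of 6 marker genes below 0, with a summed level of 152 to 494 in Tsc1-null EV lungs and 374 to 647 in WT EV lungs, and its part in the Gja5 values was not tested. Sox17, a transcription factor of arterial identity, stood at 25.9, 31.4 and 33.4 in Tsc1-null EV lungs, against 46.0, 35.0 and 45.7 in WT EV lungs (log2 fold -0.47 ± 0.18, limma adjusted p = 0.721). Thus Gja5 and Sox17 lay apart between the groups in opposite directions, both by a narrow margin. The nearest lungs, Tsc1-null EV first, were at 85.4 and 83.4 for Gja5 and at 33.4 and 35.0 for Sox17. Efnb2, an ephrin ligand of arteries, stood at 171, 219 and 237 in Tsc1-null EV lungs, against 246, 194 and 264 in WT EV lungs. The kinase gene Bmx was at 37.3, 18.9 and 13.5 in Tsc1-null EV lungs, against 16.7, 18.1 and 15.2 in WT EV lungs, so its log2 fold of 0.34 rested on Tsc1-null EV replicate 1 and was -0.05 without it. Gja4, the connexin 37 gene, had a log2 fold of 0.14, and -0.08 without WT EV replicate 2. The arterial median was -0.03 with Tsc1-null EV replicate 1 left out, -0.02 when replicate 2 of that group was, -0.08 when WT EV replicate 2 was, and 0.003 without both libraries that stood apart.

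The venous genes lay near the centre of all genes (3 of 4 below 0, median -0.05). Vwf, the clotting factor stored by endothelium of larger vessels and by platelets, stood at 270, 329 and 337 in Tsc1-null EV lungs, against 271, 254 and 329 in WT EV lungs. The groups overlapped, with Tsc1-null EV replicate 1 and WT EV replicate 1 nearly equal. Slc6a2, the noradrenaline transporter, stood at 9.22, 16.4 and 28.3 in Tsc1-null EV lungs, against 21.0, 27.3 and 23.1 in WT EV lungs, so the Tsc1-null EV lungs spanned the WT EV range on both sides. Nr2f2, the venous identity factor that fibroblasts also express, was at 252, 122 and 118 in Tsc1-null EV lungs, against 171, 173 and 144 in WT EV lungs. Its Tsc1-null EV lungs lay on both sides of the WT EV lungs, and its log2 fold was -0.07, or -0.43 without Tsc1-null EV replicate 1. Ephb4, the receptor for Efnb2, had a log2 fold of -0.02 ± 0.14. Platelet genes summed to 92.2, 112 and 133 in Tsc1-null EV lungs, against 131, 145 and 125 in WT EV lungs, and their part in the Vwf values was not tested.

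Of the 5 Notch genes 3 lay below 0 (median -0.37, or -0.22 without Tsc1-null EV replicate 1). The mean level of the 5 was lower in every Tsc1-null EV lung than in every WT EV lung, by a narrow margin. Counted from the WT EV mean on the log2 scale, it was -0.38, -0.16 and -0.25 in Tsc1-null EV lungs, against -0.11, 0.04 and 0.07 in WT EV lungs. Dll4, the ligand of arteries and tip cells, stood at 55.5, 100.4 and 101 in Tsc1-null EV lungs, against 103, 115 and 137 in WT EV lungs (log2 fold -0.50 ± 0.24, limma adjusted p = 0.721). Hey1, a repressor switched on by Notch, stood at 82.6, 102 and 95.3 in Tsc1-null EV lungs, against 135, 119 and 109 in WT EV lungs (log2 fold -0.37 ± 0.15, limma adjusted p = 0.721). Neither overlapped between the groups, and the gap for Dll4 was narrow. Notch4, the endothelial receptor, stood at 69.8, 78.7 and 111 in Tsc1-null EV lungs, against 92.3, 176 and 122 in WT EV lungs, with its highest value in WT EV replicate 2. Notch1, which many lung cells express, stood at 181, 181 and 196 in Tsc1-null EV lungs, against 172, 192 and 185 in WT EV lungs (log2 fold 0.03 ± 0.13), a difference within the spread of the mice. Hey2, of the same family as Hey1, lay at 11.4, 10.0 and 4.64 in Tsc1-null EV lungs, against 7.68, 5.88 and 9.50 in WT EV lungs. Other genes of the pathway did not lean to one side, with 9 of 17 below 0 and a median of -0.01. Among them Mfng and Lfng, which modify Notch receptors, were lower in every Tsc1-null EV lung (31.2 ± 6.61 and 41.6 ± 4.09, against 43.7 ± 5.79 and 52.0 ± 3.41 in WT EV lungs, SD, n = 3 each). The receptor Notch2 (96.7 ± 6.52, against 81.1 ± 3.50 in WT EV lungs) and Nrarp, a feedback target of Notch, were higher in every Tsc1-null EV lung (Nrarp 100.5 ± 18.9, against 74.2 ± 15.6 in WT EV lungs, SD, n = 3 each). These were 2 of 17 lower and 2 of 17 higher, beside 6.22% and 6.86% of all tested genes. None of these 17 passed (limma, 1 at an unadjusted p under 0.05).

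All 3 BMP receptor genes lay below 0 (median -0.44). Endoglin (Eng) stood at 181, 398 and 591 in Tsc1-null EV lungs, against 492, 515 and 667 in WT EV lungs, and Tsc1-null EV replicate 3 overlapped the WT EV lungs. Bmpr2, the type II receptor, stood at 354, 340.3 and 446 in Tsc1-null EV lungs, against 610.1, 402 and 490 in WT EV lungs (log2 fold -0.39 ± 0.20, limma adjusted p = 0.728), and here too Tsc1-null EV replicate 3 overlapped. Acvrl1, the type I receptor, had a log2 fold of -0.44 ± 0.26. The median of these receptors was -0.19 with Tsc1-null EV replicate 1 left out and -0.24 without both libraries that stood apart, with all 3 below 0 in both cases. Of 18 other genes of the pathway, 16 lay below 0 (median -0.18), and their mean level was lower in every Tsc1-null EV lung (-0.27, -0.28 and -0.12) than in every WT EV lung (0.03, -0.10 and 0.07), by a narrow margin. Smad9, a signal carrier of the BMP branch, was at 6.21, 5.07 and 9.61 in Tsc1-null EV lungs, against 11.95, 12.35 and 16.5 in WT EV lungs (log2 fold -0.90, unadjusted p = 0.00652 by limma). Tmem100, a target of ACVRL1 in endothelium, was at 251, 396 and 534 in Tsc1-null EV lungs, against 618, 425 and 675 in WT EV lungs. None of the 18 passed the adjusted test (limma, 1 at an unadjusted p under 0.05).

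The vessel classes were then set against each other inside each lung, as the mean log2 level of a class minus that of the general endothelial class. The arterial class lay higher relative to it in every Tsc1-null EV lung (0.73, 0.46 and 0.09) than in every WT EV lung (0.03, -0.01 and -0.02), counted from the WT EV mean, a difference of 0.43. The general endothelial class itself was at -0.75, -0.23 and -0.05 in Tsc1-null EV lungs on this scale, and the arterial class at -0.02, 0.24 and 0.04. In replicate 1 the base was thus low and the arterial level was near the WT EV mean. A gene with no difference between the groups therefore also lies above 0 relative to this base. The share of all tested genes lying wholly higher on it was not computed. The margin of Tsc1-null EV replicate 3 was small, and with Tsc1-null EV replicate 1 left out the difference was 0.28. The venous class differed by 0.23 with overlapping lungs, the transcription factors by 0.09 and the Notch genes by 0.08, while the angiopoietin, capillary and BMP receptor classes differed by -0.12, -0.13 and -0.15. Against the capillary class the arterial class stood 0.56 higher, at 1.06, 0.57 and 0.06 in Tsc1-null EV lungs and at 0, 0.08 and -0.08 in WT EV lungs, and these overlapped. The capillary class itself was at -1.075, -0.33 and -0.02 in Tsc1-null EV lungs, counted from the WT EV mean, so this base was low as well. The same was done with 16 other endothelial genes as the base, among them Pecam1 and Cdh5. Their median log2 fold was -0.32 and 15 of the 16 lay below 0, or -0.11 and 12 of the 16 with Tsc1-null EV replicate 1 left out. The BMP receptors lay lower relative to this base in every Tsc1-null EV lung (-0.26, -0.20 and -0.04) than in every WT EV lung (-0.01, 0.03 and -0.02), by a narrow margin. Relative to the general endothelial class they overlapped (-0.27, -0.27 and 0.08 in Tsc1-null EV lungs, against -0.06, 0.09 and -0.03 in WT EV lungs). Against the base of 16 other endothelial genes the median of all tested genes was 0.32, so a gene with no difference between the groups also lies above 0 on this scale. The arterial class differed by 0.42 from the same base with overlapping lungs (0.74, 0.54 and -0.03 in Tsc1-null EV lungs, against 0.09, -0.07 and -0.02 in WT EV lungs). Relative to this base Gja5, Gja4 and Vwf were higher in every Tsc1-null EV lung, which is 3 of 42 members where 14.8% of all tested genes did so. Aplnr was lower in every one, 1 of 42 where 0.466% of all tested genes did so. Subtracting this base lifts every gene alike, and the members were lower to begin with. The median went from -0.02 to 0.32 over all tested genes and from -0.36 to -0.03 over the members. Neither share is therefore a like comparison for them. In plain values the groups of Aplnr overlapped. Egfl7, Ramp2, Sox17, Dll4 and Hey1, wholly lower in plain values, overlapped on this scale.

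**Figure D3:**
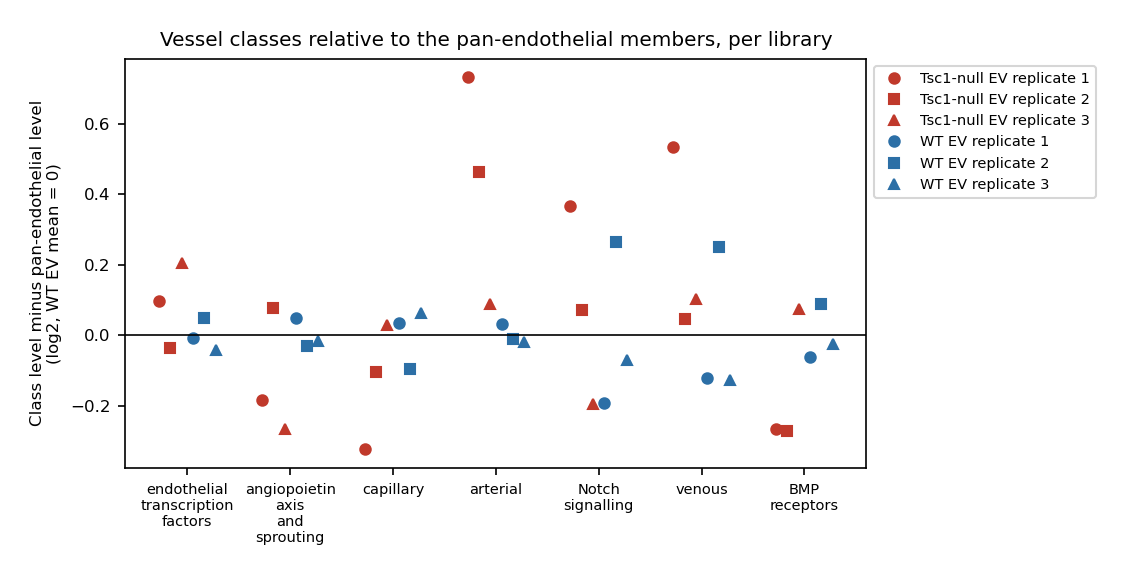
Mean log2 level of each class minus that of the general endothelial class in the same lung, with the WT EV mean set to 0. The arterial points of Tsc1-null EV lungs (0.73, 0.46 and 0.09) lie above those of all WT EV lungs, and the points of the other classes overlap. The general endothelial level itself was -0.75, -0.23 and -0.05 in Tsc1-null EV lungs, so a gene with no difference also lies above 0 here.

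Of the genes that partner the members as ligands, enzymes or cofactors, 22 of 30 tested lay below 0, with a median of -0.13, but with Tsc1-null EV replicate 1 left out 16 of 30 were below 0 and the median was -0.02. Lmo2, a cofactor that works with TAL1, was at 45.0 ± 10.99 in Tsc1-null EV lungs, against 67.8 ± 9.59 in WT EV lungs (SD, n = 3 each). Spns2, which exports sphingosine 1-phosphate from endothelium, was at 67.6 ± 13.3 in Tsc1-null EV lungs, against 92.3 ± 12.4 in WT EV lungs, and Lpl, the lipase that GPIHBP1 carries, at 230.3 ± 20.8 in Tsc1-null EV lungs, against 294.6 ± 10.98 in WT EV lungs. None of these 3 overlapped between the groups. In all, 4 of the 30 lay wholly lower and 0 wholly higher, beside 6.22% and 6.86% of all tested genes. None of the 30 passed limma's adjusted test, and 3 were at an unadjusted p under 0.05. Klf2, a flow-induced factor that acts upstream of Nos3 and was the highest gene of this list, was at 444, 319 and 456 in Tsc1-null EV lungs, against 467, 399 and 411 in WT EV lungs, so it overlapped.

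Markers of other cells moved unevenly beside the endothelial genes. The level of the 42 members, counted from the WT EV mean, was -0.65, -0.19 and -0.05 in Tsc1-null EV lungs, against 0.06, -0.18 and 0.12 in WT EV lungs. Pericyte genes were at -0.82 in Tsc1-null EV replicate 1 and between -0.04 and 0.07 in all other lungs (7 of 8 below 0, or 3 of 8 without that lung; summed level 172 to 325 in Tsc1-null EV lungs and 292 to 339 in WT EV lungs). Mesothelial genes were at -3.63, -0.91 and -0.37 in Tsc1-null EV lungs, against -0.34, 0.83 and -0.49 in WT EV lungs (6 of 6 below 0; summed level 55.3 to 428 and 382 to 1032, in the same order). The mesothelial median was -1.585, or -0.63 without Tsc1-null EV replicate 1 (6 of 6 below 0). Without both libraries that stood apart it was -0.17 (4 of 6 below 0). Ciliated cell genes were at 1.38, 0.40 and 0.25 in Tsc1-null EV lungs, against 0.17, -0.30 and 0.12 in WT EV lungs. Of these genes 0 of 7 lay below 0, or 2 of 7 without Tsc1-null EV replicate 1 (summed level 908 to 1757 and 684 to 958, in the same order). The lung with the lowest endothelial level was thus also the lowest for pericyte and mesothelial genes and the highest for ciliated genes. It was the lowest as well for fibroblast (-0.64), type 1 alveolar (-0.50), leukocyte (-0.33), platelet (-0.39) and heart muscle genes (-2.175). For smooth muscle, type 2 alveolar and lymphatic genes another lung was lowest. Type 1 alveolar genes, of the cell that faces the capillaries, had 5 of 6 below 0, or 3 of 6 without Tsc1-null EV replicate 1, with summed levels of 3803 to 6354 in Tsc1-null EV lungs and 4246 to 7133 in WT EV lungs. Fibroblast genes had 3 of 7 below 0 (summed level 1422 to 2689 in Tsc1-null EV lungs and 1535 to 2092 in WT EV lungs), leukocyte genes 3 of 8 (441 to 622 and 392.4 to 614), smooth muscle genes 7 of 7 (1261 to 1973 and 1520 to 1980), type 2 alveolar genes 1 of 7 and lymphatic genes 4 of 7 tested. The part of these cells in the endothelial values was not tested.

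**Figure D4:**
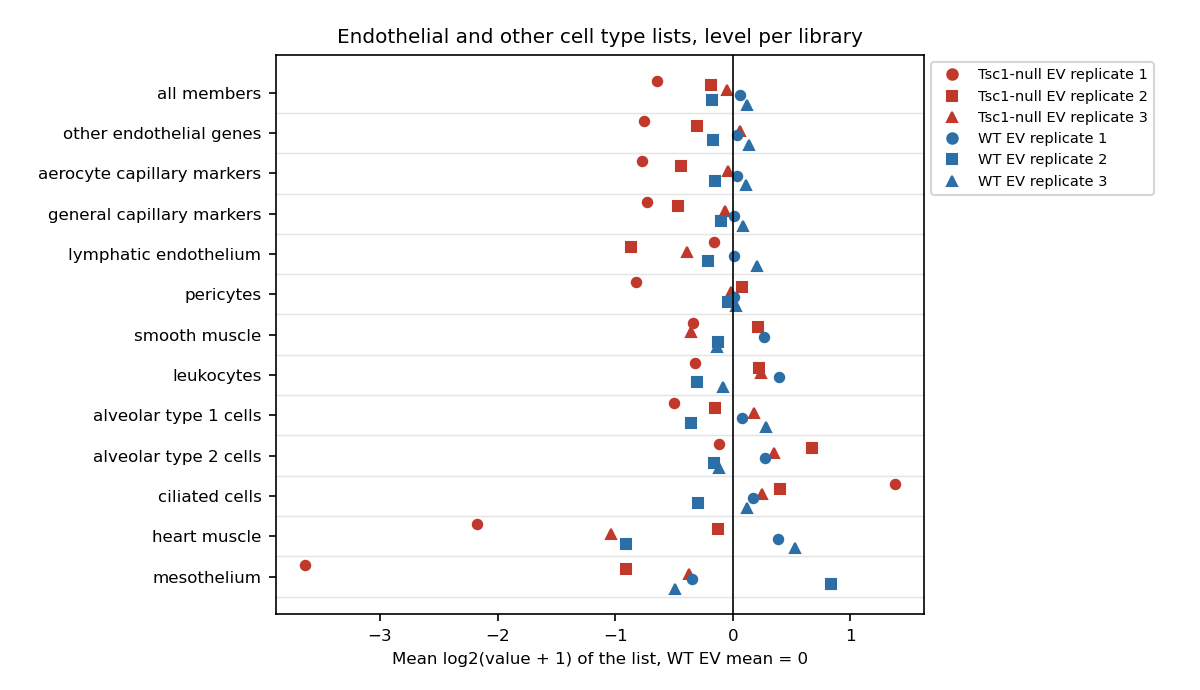
Mean log2(value + 1) of the 42 members and of lists of other cell types in each lung, with the WT EV mean set to 0 (Tsc1-null EV in red, WT EV in blue). Tsc1-null EV replicate 1 lies lowest for the members (-0.65), pericytes (-0.82) and mesothelium (-3.63) and highest for ciliated cells (1.38).

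Per kilobase of annotated exon (GENCODE M21), the highest member was Cldn5 at 438.9 RPM per kilobase, then Plvap at 237.2, Ramp2 at 188.2, Calcrl at 146.3 and Sox18 at 137.3, as means over the 6 lungs. The lowest were Tal1 at 3.47, Slc6a2 at 3.32 and Hey2 at 1.78. Reads of 2 members could be shared with other genes: Ramp2 had 30.7% of its 50-base words in transcripts of Vps25, its neighbour, and of other genes, and Gja5 had 13.2%, mostly with Zfp697. Vps25 was at 105, 110.1 and 111 in Tsc1-null EV lungs, against 126, 90.5 and 114 in WT EV lungs, and Zfp697 at 16.6, 13.4 and 17.9 in Tsc1-null EV lungs, against 21.7, 28.8 and 20.9 in WT EV lungs. Zfp697 thus lay on the side opposite to Gja5. Genes on the opposite strand overlapped over 10% of the exon bases of Nos3, Sox17 and Angpt1, and with the use of strand not given, their levels are less certain. In genome build mm10 (GRCm38), Egfl7 spans 26580014 to 26593120 of chromosome 2 and Gja5 spans 96904693 to 97077416 of chromosome 3, both on the plus strand. Sox17, on the minus strand of chromosome 1, spans 4490931 to 4497354.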

How the data were processed

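RNA of 6 mouse lungs was sequenced. The deposited values are a TMM-normalized signal, 1 column per library and 1 row per gene. Per the submitters' processing notes, Bowtie2 2.1.0, RSEM 1.2.15, edgeR and mm10 were used, in roles the notes as held here leave out. Annotation, filters and use of strand: not given in the sources used here. Every value in a column was a whole multiple of 1 step (100% within 0.001), so whole reads were recovered. Column totals were 964931 to 1022663. The table held 27 symbols turned into dates.

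Groups came from the treatment label. Genes with a mean of at least 1 were kept, and log2(value + 1) was compared with limma 3.58.1 (R 4.3.3), with a mean-variance trend. Its moderated test was two-sided, and p-values were adjusted by Benjamini-Hochberg over all tested genes, with a threshold of 0.05. Such fold changes understate those of low genes. Lists were described and not tested. The members and lists were chosen with earlier results of these data known. Full values were given for members whose groups did not overlap, for the highest of each class and for the further member with the smallest p; Esm1, Fli1, Gja4, Nr2f2, Hey2 and Notch2 were added after their values were seen. Adgrf5 and Adgrl4 were matched by older symbols. Alternatives were pseudocounts of 0.5 and 0.1, other filters and scalings, library weights, edgeR 4.0.16, DESeq2 1.42.0 and libraries left out. On simulated data the same fit recovered 29.9% of genes with a true log2 fold of 1 in size. It recovered 89.9% at a size of 2, with 10 false calls. The log2 folds of the members ran from -0.74 to 0.58, smaller than those simulated. That no member was called therefore does not show that the members were unchanged.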

Additional observations from a re-analysis of the deposited data

How the results depend on the processing

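No paired analysis was possible because the labels number the mice separately and share no replicate number between the groups. With library weights (limma arrayWeights, 0.213 to 4.19, lowest for Tsc1-null EV replicate 1) limma called 1050 genes, of which 583 were higher and 467 lower, and 10 members, of which Gja5 was higher and 9 were lower, among them Egfl7, Ramp2, Sox17, Erg, Aplnr, Plvap, Calcrl and Bmpr2. Most of the weight of the groups lay on Tsc1-null EV replicate 2 (3.95) and WT EV replicate 3 (4.19), so these calls rest largely on 1 lung of each group. The same weights put the angiopoietin class 0.02 (0.0188) from the general endothelial class and the Notch median at -0.19. DESeq2 called 14 genes, 8 higher and 6 lower, and edgeR 0. Without both libraries that stood apart limma called 25 genes and the Notch median was -0.23, with 15 members wholly lower and 2 wholly higher (21.5% and 20.8% of all tested genes). With 1 library left out, limma called 0 to 2 genes, the Notch median ran from -0.44 to -0.22, and 5 to 17 members lay wholly lower and 1 to 3 wholly higher, beside 9.03% to 14.3% and 9.1% to 14.9% of all tested genes. These last counts, and leaving out libraries for them, were added after seeing the data. The 0.1 and 0.5 pseudocounts, both filters, quantile scaling and a common median called 0 genes. Every member had a mean above 5, so that filter removed none of them. Over 16 alternatives, 13 of the 42 members changed sign at least once, none of them called (Esam, Emcn, Nos3, Fli1, Tal1, Sox7, Sox18, Gja4, Bmx, Notch1, Hey2, Nr2f2 and Ephb4), 8 of them without Tsc1-null EV replicate 1. The causes were not tested. Depth was lowest for Hey2, with 40 to 93 reads a library.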
